A study of Mus musculus with 15 samples.

Results

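The regulatory T cells (Tregs) of the peritoneal cavity were set against those of the spleen in dDC mice. The comparison used 5 of the 15 libraries of the study, 2 from the peritoneal cavity and 3 from the spleen, chosen by the tissue and genotype in their labels, and all genes of the count table except spike-in sequences. Tregs are CD4 T cells that hold back immune responses, and their defining transcription factor is Foxp3. The study sequenced RNA of Tregs from spleen, thymus and peritoneal cavity, sorted by a Foxp3 reporter from adult mice on the C57BL/6 background. The dDC groups came from the line RelB-dDC and the control groups from littermates, and both carried the reporter. The name is read here as dendritic cells without RelB, which is an NF-kappaB subunit. The sources used here name neither the driver of the deletion nor the age in weeks or the sex, and the labels name no further treatment. Under that reading the sorted Tregs are not the target, so that Relb in them would not check the genotype labels. Whether libraries came from separate mice is not given either, so p-values measure the spread between these libraries, which may in part be technical.

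As background, Tregs that circulate through lymphoid organs keep homing and egress receptors, and those that settle in tissues take on further receptors. Among these are ST2, the receptor of the alarmin IL-33 encoded by Il1rl1, the lectin-like receptor KLRG1 and chemokine receptors such as CCR2. The peritoneal cavity holds mostly macrophages and B cells with few T cells, while spleen Tregs lie next to B cell follicles, T cell zones and blood. In bulk samples of a sorted population, fewer cells of a kind and less RNA in each cell cannot be told apart.

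The 5 libraries held 18763527 to 20607644 counts, and 18423 genes were tested. Foxp3 stood at 261 and 199 CPM (counts scaled to library size with TMM factors) in peritoneal libraries 1 and 2 and at 256, 241 and 209.5 CPM in spleen libraries 1, 2 and 3. The sort marker was thus present in all 5 libraries, with overlapping ranges (log2 difference -0.03, SE 0.18, edgeR adjusted p = 1), and its exons overlap Ccdc22, Flicr and a model gene. RNA of other cells was present as well. The 18 B cell markers summed to 8321 and 14580 CPM in the peritoneal libraries and to 5045, 5561 and 6644 CPM in the spleen libraries. The 13 erythroid and platelet markers in the table summed to 6.59 and 395 CPM in the peritoneal libraries and to 4249, 2396 and 3728 CPM in the spleen libraries. Their part in the results below was not tested.

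Of the 18423 genes, 167 passed the threshold (edgeR adjusted p below 0.05), which is 0.906% of those tested. In peritoneal Tregs 89 genes were higher (0.483%) and 78 were lower (0.423%). The ranges of the groups did not overlap for any of the 167 genes, against 28.4% of all tested genes. Among the higher genes were receptors for interferon gamma, IL-33, platelet-activating factor and chemokines, and genes for actin-bound proteins. Among the lower genes were interferon-induced genes and several surface receptors. The number of calls leaned on single libraries: 24 genes were higher and 38 lower without peritoneal library 1, and 23 and 18 without peritoneal library 2. Without spleen library 1, 2 or 3 the counts were 46 and 40, 34 and 34, and 26 and 26. Of the 167 genes, 16 higher and 14 lower ones were called with each of the 5 libraries left out in turn. A fit of the 5 libraries alone called 36 higher and 21 lower genes, of which 47 are among the 167.

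**Figure D1:**
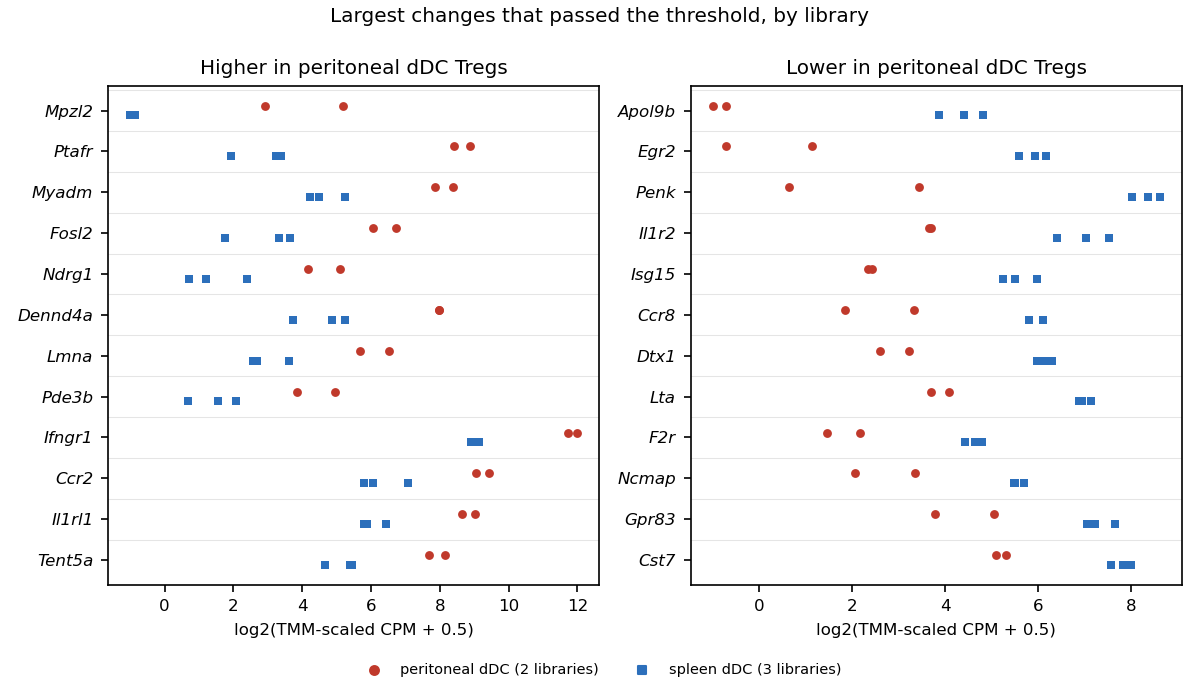
TMM-scaled CPM on a log2 axis, with 0.5 added, for the 12 genes with the largest higher and the 12 with the largest lower values that passed the threshold; red circles are the 2 peritoneal dDC libraries and blue squares the 3 spleen dDC libraries. In each of the 24 genes the red and blue points do not overlap, and Ptafr is the gene with the widest gap among those above 100 CPM in peritoneal libraries.

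Receptors for platelet-activating factor and interferon gamma were among the higher genes. Ptafr (ENSMUSG00000056529, chromosome 4, 132564067 to 132582683, mm10), the receptor of platelet-activating factor, stood at 342 and 468 CPM in the peritoneal libraries and at 8.98, 3.34 and 9.91 CPM in the spleen libraries. Both peritoneal libraries lay far above every spleen library, and the gene was 54.6-fold higher (log2 5.77, SE 0.71, edgeR adjusted p = 0.00299). Ifngr1 (ENSMUSG00000020009, chromosome 10, 19591949 to 19610229), the ligand-binding chain of the interferon gamma receptor, stood at 4069 and 3405 CPM in the peritoneal and at 569, 484 and 485 CPM in the spleen libraries. It was 7.29-fold higher (log2 2.87, SE 0.22, edgeR adjusted p = 0.000152). The partner chain Ifngr2 was low and overlapped between tissues, at 34.8 and 27.9 CPM against 56.6, 44.2 and 32.2 CPM (log2 -0.50, edgeR adjusted p = 0.636). The calls of Ptafr and Ifngr1 held with each of the 5 libraries left out, with a largest adjusted p of 0.0225 and 0.00291.

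Among 27 cytokine receptor genes, all tested, 3 were higher and 2 lower in peritoneal Tregs, with a median log2 value of -0.05 beside -0.01 over all genes. Besides Ifngr1, the higher ones were Il1rl1, which encodes ST2, and Il7r, the IL-7 receptor chain that naive and resting T cells carry. Il1rl1 (ENSMUSG00000026069, chromosome 1, 40429570 to 40465415) stood at 520.1 and 397 CPM in the peritoneal and at 85.3, 55.2 and 58.6 CPM in the spleen libraries (log2 2.79, SE 0.52, edgeR adjusted p = 0.0296). The groups were well apart, but the call of Il1rl1 was lost when any one of the 5 libraries was left out, with an adjusted p of up to 0.151. Il7r stood at 899.9 and 654 CPM against 427, 303 and 329 CPM in spleen (log2 1.14, edgeR adjusted p = 0.0318), and its call was lost without either peritoneal library or spleen library 2 or 3, with an adjusted p of up to 0.271. The lower receptors were Il1r2, a decoy receptor that binds IL-1 without signalling, and Il21r, the receptor of IL-21 from follicular helper cells. Il1r2 stood at 12.5 and 12.1 CPM against 84.3, 182 and 131 CPM in spleen (log2 -3.43, SE 0.45, edgeR adjusted p = 0.00423), and its call was lost without either peritoneal library (adjusted p up to 0.0799). Il21r stood at 116 and 107 CPM against 259.8, 218 and 208 CPM, 2.05-fold lower (edgeR adjusted p = 0.0186), a call lost without any one library (up to 0.245). The IL-2 receptor chains Il2ra (log2 -0.46) and Il2rb (log2 -0.63) did not pass, with edgeR adjusted p of 0.487 and 0.118.

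Of 24 genes known from tissue Tregs, 5 were higher and 1 was lower, with a median log2 value of 0.11. The higher ones were Il1rl1, Klrg1, Cxcr6, Ccr2 and Id2. Klrg1 (ENSMUSG00000030114, chromosome 6, 122270596 to 122282882), an inhibitory receptor that binds cadherins, stood at 296 and 315 CPM in the peritoneal and 86.9, 104 and 48.9 CPM in the spleen libraries (log2 1.94, SE 0.29, edgeR adjusted p = 0.0103). Without peritoneal library 1 or 2 its call was lost (adjusted p up to 0.0829). Id2, which blocks E protein transcription factors, stood at 565 and 821 CPM against 282, 278 and 179.6 CPM (log2 1.49, edgeR adjusted p = 0.0166), lost without peritoneal library 2 or spleen library 3 (up to 0.219). Without peritoneal library 2 no higher member of the list passed by edgeR, and without peritoneal library 1 or spleen library 3 there was 1. Several regulators named with this program did not pass. Gata3, the factor of type 2 T cells that is also active in tissue Tregs, stood at 668 and 728 CPM against 468, 563 and 337 CPM, with separate ranges (log2 0.62, edgeR adjusted p = 0.503). The AP-1 family factor Batf had a log2 value of -0.71, Maf of -0.74, Irf4 of -0.31 and Rora of 0.61, with edgeR adjusted p from 0.245 to 0.99. Pparg, the factor of fat tissue Tregs, was low, at 21.7 and 10.1 CPM against 0.641, 0 and 3.69 CPM (edgeR adjusted p = 0.716). Areg, the repair factor amphiregulin, was near the floor, at 0.669 and 0.167 CPM against 3.26, 0 and 0.194 CPM.

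Chemokine and egress receptors split by receptor. Of 21 tested of 24, 5 were higher and 2 lower, with a median log2 value of 0.92. Ccr2, the receptor for monocyte chemoattractants, stood at 685 and 531 CPM in the peritoneal and at 134, 66.1 and 54.9 CPM in the spleen libraries (log2 2.84, SE 0.45, edgeR adjusted p = 0.0144). Cxcr6, the receptor of Cxcl16, stood at 153 and 149 CPM against 41.8, 33.0 and 26.9 CPM (log2 2.15, SE 0.36, edgeR adjusted p = 0.0186). Both calls were lost without either peritoneal library or spleen library 2 or 3, with an adjusted p of up to 0.078 for Ccr2 and 0.118 for Cxcr6. P2ry10, a receptor for lysophosphatidylserine, was 4.11-fold higher (edgeR adjusted p = 0.00423) and kept its call with each library left out. S1pr1, which draws T cells out of lymphoid organs along sphingosine-1-phosphate, stood at 1276 and 927 CPM against 468, 459.5 and 407 CPM (log2 1.31, edgeR adjusted p = 0.0186). Gpr183, a receptor for oxysterols that positions cells in follicles and T cell zones, had a log2 value of 1.21 (edgeR adjusted p = 0.0231). S1pr1 lost its call without peritoneal library 1 or any one spleen library (adjusted p up to 0.165), and Gpr183 without any one library (up to 0.235).

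The lower receptors of this list were Ccr8 and Ccr6. Ccr8 (ENSMUSG00000042262, chromosome 9, 120092133 to 120094906), which marks activated Tregs in skin and other barrier tissues, stood at 3.09 and 9.56 CPM in the peritoneal and at 55.5, 67.9 and 67.5 CPM in the spleen libraries (log2 -3.33, SE 0.55, edgeR adjusted p = 0.0168). Ccr8 is a member of the tissue Treg list too, and it was its 1 lower gene. Ccr6, the receptor of Ccl20, stood at 36.2 and 50.9 CPM against 142, 139 and 112 CPM (log2 -1.59, edgeR adjusted p = 0.0388). The call of Ccr8 was lost without peritoneal library 1 or spleen library 2 or 3 (adjusted p up to 0.111), and that of Ccr6 without any one library (up to 0.295). Ccr7, which guides T cells to lymphoid T cell zones, and Cxcr5, which guides them to follicles, did not pass, with log2 values of -0.20 and 0.14 (edgeR adjusted p = 0.954 and 0.997). The ranges of both overlapped between tissues.

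Among effector Treg genes, Crip1 and Tagln2 had the smallest p-values. Of 25 tested, 6 were higher and 1 was lower, with a median log2 value of 0.82, and 18 of the 25 values were positive against 48.7% of all genes. Crip1 (ENSMUSG00000006360, chromosome 12, 113146316 to 113153879), a small zinc-binding LIM protein, stood at 2138 and 2808 CPM in the peritoneal and at 478, 452 and 420.4 CPM in the spleen libraries. The gene was 5.50-fold higher (log2 2.46, SE 0.12, edgeR adjusted p = 4.15e-06), the smallest p of all tested genes. Tagln2 (ENSMUSG00000026547, chromosome 1, 172500047 to 172507380), which stabilises actin filaments at the contact of T cells with other cells, stood at 1586 and 1864 CPM against 364, 386 and 376 CPM (log2 2.20, SE 0.14, edgeR adjusted p = 2.03e-05). Within each tissue the libraries lay close together for both genes, and both calls held with each library left out. Ahnak, a very large scaffold protein under the membrane, was 2.48-fold higher (edgeR adjusted p = 0.00112) and kept its call in the same way. Vim, the intermediate filament vimentin, was 2.39-fold higher at 715 and 1058 CPM against 403, 377 and 332 CPM (edgeR adjusted p = 0.0104), lost without peritoneal library 2 or spleen library 3 (up to 0.143). The list's lower gene was Ebi3, a subunit of IL-27 and IL-35, at 21.6 and 16.5 CPM against 69.9, 79.4 and 60.5 CPM (log2 -1.88, edgeR adjusted p = 0.0404). Leaving out any one library lost the calls of Ebi3 (up to 0.431) and of Plp2, a membrane protein with a log2 value of 1.47 (up to 0.295).

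Calcium-binding S100 genes and galectins had positive values that did not pass. S100a6 stood at 288 and 527 CPM against 152, 135 and 77.4 CPM (log2 1.75, edgeR adjusted p = 0.0509), S100a10 had a log2 value of 0.83 and Lgals1, for galectin-1, of 0.91 (adjusted p = 0.16 and 0.0579). All 3 had separate ranges, and they were picked from the effector Treg list. Of its 25 genes, 16 had ranges wholly above spleen and 3 wholly below, against 15.0% and 13.4% of all genes. Icos and Cd44, surface proteins of activated T cells, stood at log2 values of -0.11 and 0.19 with overlapping ranges.

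Of 24 integrin and adhesion genes 2 were higher and none lower, with a median log2 value of 0.03. Itga4 and Itgb1 encode the chains of the integrin VLA-4, which binds VCAM-1 on endothelium. Itga4 stood at 947 and 865 CPM in the peritoneal and 342, 419 and 454 CPM in the spleen libraries (log2 1.16, edgeR adjusted p = 0.0113), and Cerkl overlaps its exons on the other strand. Itgb1 stood at 722 and 595 CPM against 353, 343 and 354 CPM (log2 0.91, edgeR adjusted p = 0.0175). The call of Itga4 was lost without either peritoneal library (up to 0.0894) and that of Itgb1 without any one library (up to 0.159). Itgae, for CD103 that binds E-cadherin on epithelium, stood at 31.8 and 51.2 CPM against 195, 164 and 195 CPM and did not pass (log2 -2.15, edgeR adjusted p = 0.117). Itgb8, whose product activates latent TGF-beta, had a log2 value of -2.73 (adjusted p = 0.113). Other genes of filaments, actin and the membrane skeleton, picked after their values were seen, were Iqgap1 (log2 0.88), Flna (0.70), Tmod3 (2.01-fold higher) and the nuclear lamin gene Lmna, 9.35-fold higher at 51.1 and 92.2 CPM against 5.88, 11.7 and 5.44 CPM. Of these Iqgap1 kept its call with each library left out, Lmna lost it without peritoneal library 2 (adjusted p 0.0784), and Flna and Tmod3 lost it without either peritoneal library or either of 2 spleen libraries (up to 0.144 and 0.144).

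The Treg identity list split. Of its 22 genes 5 were higher and 4 lower, with a median log2 value of -0.11. Tnfrsf18, for the costimulatory receptor GITR, stood at 1119 and 1185 CPM in the peritoneal and 481, 457 and 447 CPM in the spleen libraries (log2 1.32, SE 0.13, edgeR adjusted p = 0.000677). Tnfrsf4, for the costimulatory receptor OX40, stood at 1603 and 1656 CPM against 748, 853 and 781 CPM, with no overlap (log2 1.04, edgeR adjusted p = 0.00776). Ecm1, a secreted matrix protein that marks Tregs, was 2.59-fold higher (edgeR adjusted p = 0.000677). Socs2, a brake on cytokine signalling, and Swap70, an actin-binding protein, had log2 values of 2.13 and 1.09 (edgeR adjusted p = 0.0241 and 0.045). The calls of Tnfrsf18 and Ecm1 held with each library left out. Those of the others did not: Tnfrsf4 was lost without either peritoneal library (up to 0.0802), Socs2 without peritoneal library 2 or any one spleen library (up to 0.291) and Swap70 without any one library (up to 0.334). Exons of Tnfrsf18 and Ecm1 overlap a model gene and a microRNA gene, respectively.

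The 4 lower identity genes were Izumo1r, Rgs1, Gpr83 and Tnfrsf9. Izumo1r (ENSMUSG00000031933, chromosome 9, 14885814 to 14903949), for folate receptor 4, which Tregs and anergic T cells carry, stood at 324 and 319.7 CPM in the peritoneal and at 1179, 1287 and 1434 CPM in the spleen libraries. It was 4.04-fold lower (log2 -2.01, SE 0.21, edgeR adjusted p = 0.000724), a call kept with each library left out (adjusted p up to 0.0225). Rgs1, which dampens chemokine receptor signals, stood at 156 and 200.1 CPM against 652, 508 and 524 CPM (log2 -1.66, edgeR adjusted p = 0.00498), lost without peritoneal library 1 (0.075). Gpr83, a receptor used as a Treg marker, stood at 32.4 and 13.2 CPM against 131, 199.96 and 149 CPM (log2 -2.81, edgeR adjusted p = 0.0186), lost without peritoneal library 2 or spleen library 2 or 3 (up to 0.219). Tnfrsf9, for the activation receptor 4-1BB, stood at 59.5 and 77.6 CPM against 181, 291 and 236 CPM (log2 -1.78, edgeR adjusted p = 0.0308), lost without either peritoneal library or spleen library 2 or 3 (up to 0.237). Nrp1 and Ikzf2, which mark Tregs made in the thymus, did not differ beyond their spread, with log2 values of -0.10 and -0.12 and SE of 0.11 and 0.13. Ctla4 had a log2 value of 0.31 (edgeR adjusted p = 0.669). In the TNF receptor family as a whole, 2 of 15 genes were higher and 1 lower, the same Tnfrsf18, Tnfrsf4 and Tnfrsf9, with a median of 0.00 (-0.14 with the gene at no count placed at its bound).

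**Figure D2:**
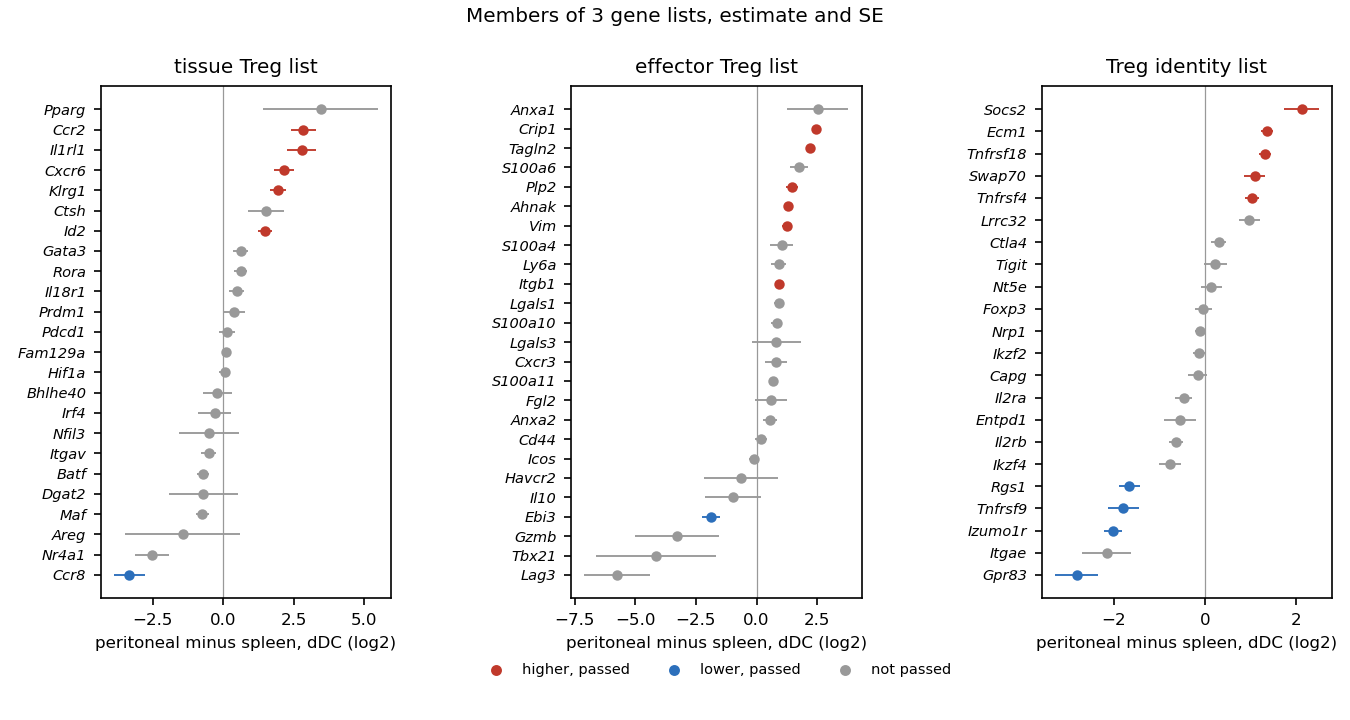
Log2 difference of peritoneal minus spleen dDC Tregs with its SE for each member of the tissue Treg, effector Treg and Treg identity lists; red points passed as higher, blue as lower and grey did not pass. The effector panel lies mostly to the right of 0 with a median of 0.82, while the medians of the other panels are 0.11 and -0.11.

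Interferon-stimulated genes stood lower in peritoneal Tregs, where 6 of 28 passed. Type I interferons act on their target genes through sequences known as interferon-stimulated response elements. A core form of this element, GAAANNGAAA or TTTCNNTTTC on the other strand, was looked for in the 250 bases before the start of each gene (RefSeq, GRCm38.p6). It was present in 3.46% of 27025 genes with such a window and in 3.47% of those tested. Among genes lower in peritoneal Tregs with a window, 9 of 56 (16.1%) held it, and among higher genes 2 of 62 (3.23%). Of 20 genes of the interferon list with a window, 10 (50%) held it. Such a match describes the letters and is not a binding site shown by these data. The windows of 4 of the 5 lower genes with more than 1 match are shown, with the matches in capitals and the last base next to the RefSeq gene start. The fifth, Apol9a, is a near copy of Apol9b, and of the 2 windows of Apol9b the one next to the gene start of the count table is given. The window of Irgm1 lies inside the gene of the count table, which starts at 48871683 on the minus strand.
Isg15 (chr4:156200819-156201068, minus strand): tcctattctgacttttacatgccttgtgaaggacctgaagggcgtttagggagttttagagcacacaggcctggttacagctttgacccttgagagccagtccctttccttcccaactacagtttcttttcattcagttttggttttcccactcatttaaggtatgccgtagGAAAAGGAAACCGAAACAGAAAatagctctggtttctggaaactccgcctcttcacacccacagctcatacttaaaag
Ifit3 (chr19:34583279-34583528, plus strand): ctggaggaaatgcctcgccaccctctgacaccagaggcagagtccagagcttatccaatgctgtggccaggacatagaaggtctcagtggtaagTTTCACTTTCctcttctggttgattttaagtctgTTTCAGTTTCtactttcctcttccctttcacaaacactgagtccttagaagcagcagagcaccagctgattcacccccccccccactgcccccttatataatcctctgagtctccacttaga
Irgm1 (chr11:48871421-48871670, minus strand): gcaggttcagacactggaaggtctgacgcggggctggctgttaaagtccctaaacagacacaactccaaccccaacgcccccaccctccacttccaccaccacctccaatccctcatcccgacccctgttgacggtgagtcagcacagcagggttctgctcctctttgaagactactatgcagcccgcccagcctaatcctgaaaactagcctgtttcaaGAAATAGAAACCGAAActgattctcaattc
Apol9b (chr15:77728871-77729120, plus strand): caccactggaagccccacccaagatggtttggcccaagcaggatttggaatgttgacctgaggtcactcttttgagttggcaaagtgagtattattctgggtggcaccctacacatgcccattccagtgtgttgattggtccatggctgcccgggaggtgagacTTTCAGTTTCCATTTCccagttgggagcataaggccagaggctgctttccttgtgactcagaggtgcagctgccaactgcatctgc
Isg15 holds 3 matches, and Ifit3, Irgm1 and Apol9b hold 2 each. In Isg15, Irgm1 and Apol9b the matches overlap one another.

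Of 28 interferon-stimulated genes, all tested, 6 were lower and none higher in peritoneal Tregs by edgeR. Their median log2 value was -1.21 beside -0.01 over all genes, 26 of 28 values were negative, and 22 had ranges wholly below spleen, against 13.4% of all genes. Isg15 (ENSMUSG00000035692, chromosome 4, 156199424 to 156200818), a ubiquitin-like protein that is attached to others upon interferon, stood at 4.89 and 4.56 CPM in the peritoneal and at 61.8, 37.1 and 44.7 CPM in the spleen libraries. It was 10.1-fold lower (log2 -3.34, SE 0.41, edgeR adjusted p = 0.00299), a call lost without peritoneal library 2 (0.0641). Both peritoneal values of Isg15 lay far below every spleen value. Ifit3, which binds foreign RNA with its partners, stood at 5.82 and 6.67 CPM against 31.8, 27.5 and 27.6 CPM (log2 -2.21, edgeR adjusted p = 0.0182), and its near copy Ifit3b may share its reads. Usp18, which removes Isg15 and curbs the receptor, stood at 42.2 and 48.997 CPM against 163, 136 and 185 CPM (log2 -1.82, edgeR adjusted p = 0.0285). Isg20 (log2 -1.85) and Xaf1 (log2 -1.47) also passed as lower. The calls of Ifit3, Usp18, Isg20 and Xaf1 were lost when any one library was left out, with adjusted p up to 0.182, 0.237, 0.363 and 0.287.

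How many members passed moved with the library left out and with the tool, while the median stayed negative. Only 1 gene was called without peritoneal library 2, and 2 without any one of the other libraries, with medians from -1.52 to -1.08. DESeq2 called 15 lower members and limma 2. The 2 members with values above 0 were Ifit2 (log2 0.28) and Oasl2 (0.14), neither of which passed. The factors Irf7 and Irf9 had log2 values of -0.83 and -0.88 and separate ranges (edgeR adjusted p = 0.0695 and 0.0734). The type I receptor chain Ifnar1 stood at 188 and 242 CPM against 132, 159 and 174 CPM (log2 0.47) and Ifnar2 at log2 -0.36, with edgeR adjusted p of 0.564 and 0.918. Ifngr1, in contrast, was among the higher genes described above.

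**Figure D3:**
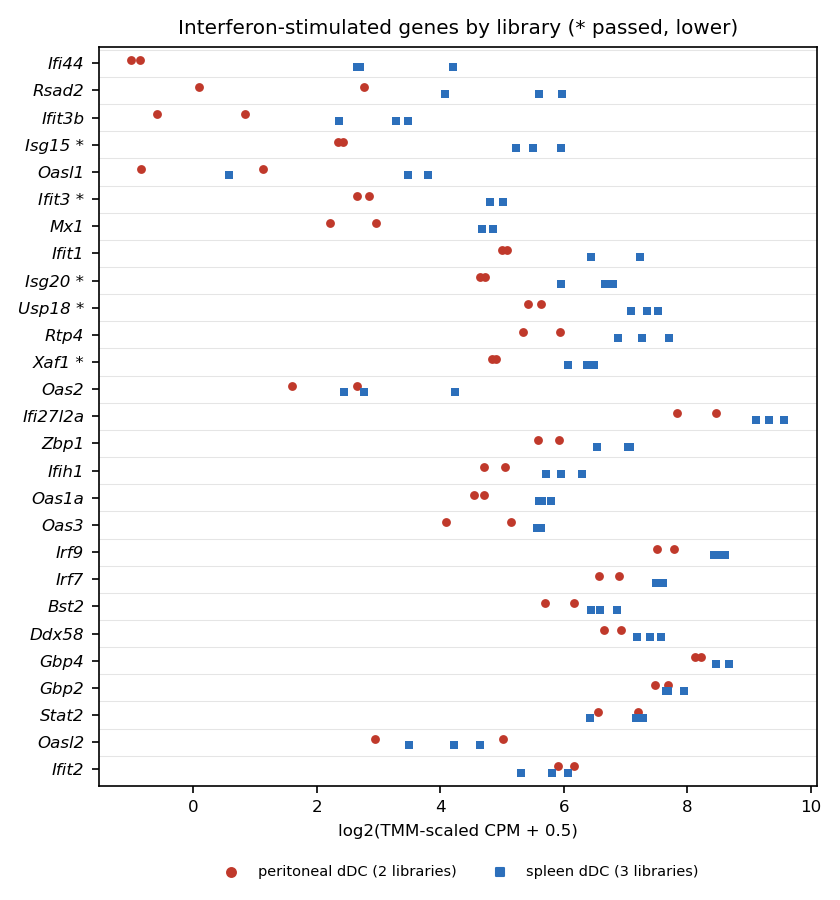
TMM-scaled CPM on a log2 axis, with 0.5 added, for 27 of the 28 interferon-stimulated genes in the 2 peritoneal dDC libraries (red circles) and the 3 spleen dDC libraries (blue squares); an asterisk marks the 5 lower genes shown that passed. Red points lie wholly to the left of the blue points in 21 of the 27 genes.

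Outside that list, further genes known to be induced by interferons were among the lower ones, picked here after their values were seen. Apol9b, an apolipoprotein L family gene, stood at 0.103 and 0 CPM against 13.9, 27.6 and 20.6 CPM and kept its call with each library left out (edgeR adjusted p = 0.00112). Its near copy Apol9a had no count in either peritoneal library and stood at 3.90, 6.58 and 5.39 CPM in the spleen libraries. Apol9a was at least 33.0-fold lower against a floor of 3 counts per library (edgeR adjusted p = 0.0449). Unlike that of Apol9b, its call was lost without any one library. Reads of these copies may be split between them. Irgm1, a GTPase of cell defence, stood at 137 and 139 CPM against 277, 341 and 429 CPM (log2 -1.34, edgeR adjusted p = 0.0226). Gbp6, Gbp10, Slfn8, Trim30d and Mx2 also passed, with log2 values of -1.48, -1.97, -1.24, -1.54 and -6.51. Each of these 5 and Irgm1 lost its call without most single libraries, with adjusted p up to 0.363.

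Antigen processing genes, also picked after their values were seen, were lower by smaller amounts. H2-T23, a nonclassical class I molecule read by inhibitory receptors, stood at 514 and 568 CPM against 969, 859 and 962 CPM (log2 -0.78, SE 0.10, edgeR adjusted p = 0.00266). Tap1, a chain of the peptide transporter, stood at 166 and 188 CPM against 276, 319.5 and 340.0 CPM (log2 -0.82, edgeR adjusted p = 0.0155), and Psmb9 overlaps its exons. Psmb10, a subunit of the immunoproteasome, had a log2 value of -0.77 and Psme2, a subunit of its activator, of -0.95 (edgeR adjusted p = 0.0296 and 0.0108). H2-T23 kept its call with each library left out. Tap1 lost it without either peritoneal library or spleen library 2 or 3 (up to 0.147), Psme2 without either peritoneal library or spleen library 3 (up to 0.115) and Psmb10 without any one (up to 0.24). The B cell markers, which include class II genes, ran the other way, since their sum was higher in both peritoneal libraries.

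Immediate-early genes held calls in both directions. Egr2, an early response factor downstream of the T cell receptor, stood at 1.70 and 0.111 CPM in the peritoneal and at 47.6, 60.6 and 71.0 CPM in the spleen libraries (log2 -6.02, SE 0.78, edgeR adjusted p = 0.00372). Its call held with each library left out (up to 0.0138). Of 30 immediate-early and heat-shock genes, 2 were lower, Egr2 and the RNA-binding gene Zfp36l1 (log2 -1.02), and 1 was higher, the AP-1 member Fosl2 (log2 3.41). The median was -0.22, and it was -0.06 without peritoneal library 1, -0.46 without peritoneal library 2 and 0.08 without spleen library 1. Fosl2 stood at 106 and 66.2 CPM against 9.56, 11.9 and 2.86 CPM (edgeR adjusted p = 0.0186), lost without either peritoneal library or spleen library 1 or 3 (up to 0.115). The call of Zfp36l1 was lost without either peritoneal library or spleen library 1 or 2 (up to 0.308). Egr1, Nr4a1 and Nr4a3 had log2 values of -1.67, -2.54 and -2.12 and separate ranges, and none passed (edgeR adjusted p = 0.547, 0.0956 and 0.422). Ranges lay wholly below spleen for 9 of the 30 genes and wholly above for 7, against 13.4% and 15.0% of all genes. Fos had a log2 value of 1.80 (adjusted p = 0.694) and Jun of -0.12. Heat-shock genes, which rise when cells are handled, varied between libraries of a tissue, with Hspa1a at 3.19 and 0.611 CPM against 36.3, 2.84 and 0.631 CPM.

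Other lower genes came from signalling and secretion. Lta (ENSMUSG00000024402, chromosome 17, 35203165 to 35205351), for lymphotoxin alpha, stood at 16.4 and 12.5 CPM against 139, 116 and 122 CPM (log2 -3.12, SE 0.29, edgeR adjusted p = 0.000677). Cst7, an inhibitor of cathepsins, stood at 33.3 and 38.9 CPM against 187, 226 and 255 CPM (log2 -2.62, edgeR adjusted p = 0.000677). Dtx1, a regulator of Notch signals that is induced in anergic T cells, stood at 8.86 and 5.50 CPM against 62.0, 70.5 and 77.5 CPM (log2 -3.28, edgeR adjusted p = 0.00151). In all 3 the peritoneal libraries lay far below the spleen libraries, and the calls held with each library left out. So did those of Ephx1, an epoxide hydrolase (log2 -2.15), Rgs10, a brake on G protein signals (log2 -1.69), and Myb, a factor of blood progenitors (log2 -4.41). Myb was low, at 1.18 and 0.49997 CPM against 13.8, 24.7 and 15.7 CPM, and a model gene overlaps its exons. Penk, for the opioid precursor proenkephalin made by Tregs, stood at 10.3 and 1.06 CPM against 325, 389.6 and 258 CPM (log2 -5.83, SE 1.15, edgeR adjusted p = 0.0388). The peritoneal libraries of Penk differed from each other, its call was lost without any one library (up to 0.291), and A830012C17Rik overlaps its exons. F2r, a thrombin receptor, and Ncmap, a myelin-associated protein, completed the largest lower changes with log2 values of -2.96 and -2.81. The call of F2r was lost without either peritoneal library or spleen library 2 or 3 (up to 0.261), and that of Ncmap without peritoneal library 2 or spleen library 3 (up to 0.172).

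Follicular genes were set apart by 2 lower members. Of 12 tested of 14, 2 were lower and none higher, with a median log2 value of -1.23 that was -0.72 without spleen library 3. Sh2d1a, the adaptor SAP that T cells need to help B cells, stood at 111 and 132 CPM in the peritoneal and 306, 329 and 362 CPM in the spleen libraries (log2 -1.45, edgeR adjusted p = 0.000698). Its call held with each library left out, and Tenm1 overlaps its exons on the other strand. Cd200, an inhibitory ligand, stood at 42.9 and 41.8 CPM against 111, 135 and 143 CPM (log2 -1.61, edgeR adjusted p = 0.00305), lost without peritoneal library 2 (0.0571). Bcl6, the factor that defines follicular T cells, stood at 3.81 and 16.5 CPM against 39.8, 57.8 and 33.9 CPM and did not pass (log2 -2.11, edgeR adjusted p = 0.371). The receptors Cxcr5 and Pdcd1, also of this program, had log2 values of 0.14 and 0.12 and overlapping ranges.

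Among 36 T cell transcription factors 2 were higher and 2 lower. Their median log2 value was -0.28, and it was -0.48 without peritoneal library 1, -0.10 without peritoneal library 2, -0.42 without spleen library 1 and -0.18 without spleen library 3. Klf6 stood at 1609.8 and 1906 CPM in the peritoneal and 471, 265 and 276 CPM in the spleen libraries (log2 2.38, edgeR adjusted p = 0.0175), and Id2 was the other higher one. Id3, which like Id2 blocks E proteins, was lower at 91.9 and 148 CPM against 319, 450.2 and 377 CPM (log2 -1.67, edgeR adjusted p = 0.0318). Tox, a factor of chronically stimulated T cells, had a log2 value of -0.91 (edgeR adjusted p = 0.0393). The calls of Id3 and Tox were lost without any one library (up to 0.248 and 0.334), and that of Klf6 without either peritoneal library or spleen library 2 or 3 (up to 0.136). Relb itself stood at 7.72 and 10.1 CPM against 22.4, 22.9 and 26.6 CPM and did not pass (log2 -1.42, edgeR adjusted p = 0.112).

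The list for naive or resting T cells held calls in both directions. Of 22, 3 were higher and 2 lower, with a median of -0.23. It was -0.61 without peritoneal library 1, 0.17 without peritoneal library 2 and -0.09 without spleen library 3. The higher ones were S1pr1, Il7r and Klf3, a repressor of the KLF family at 510.1 and 558 CPM against 169.6, 182 and 229 CPM (log2 1.46, edgeR adjusted p = 0.0033), whose call held with each library left out. Its relative Klf2, which drives S1pr1, had a log2 value of 1.10 (edgeR adjusted p = 0.116). Besides Myb, which effector Tregs are known to express too, Actn1, an actin crosslinker, was lower at 57.8 and 49.9 CPM against 173, 152 and 142 CPM (log2 -1.53, edgeR adjusted p = 0.0182), lost without any one library (up to 0.243). Tcf7 and Lef1 had log2 values of -0.32 and -0.25 and overlapping ranges.

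Of 20 tested genes for suppressive and effector products, Penk and Ebi3 were lower and none was higher, with a median of -0.95 (-0.99 with a gene at no count in one group placed at its bound). The median was -0.42 without peritoneal library 1, and no member passed by edgeR when any one library was left out. Many of these genes were near the floor. Il10 stood at 0.772 and 6.06 CPM against 4.70, 10.7 and 4.90 CPM, and Gzmb at 2.01 and 0.556 CPM against 14.9, 12.2 and 10.5 CPM (edgeR adjusted p = 0.941 and 0.669). Lag3 had no more than 0.0515 and 0.0556 CPM in the peritoneal libraries, beside 2.35, 4.99 and 2.38 CPM in spleen (edgeR adjusted p = 0.0842). Nt5e, for the adenosine-producing enzyme CD73, stood at 619 and 603 CPM against 502, 510.0 and 641 CPM with overlapping ranges.

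Proximal signalling and metabolism showed few calls by edgeR. Of 23 T cell receptor signalling genes 1 was lower, the adaptor Lat at 437 and 482 CPM against 769, 829 and 655 CPM (log2 -0.71, edgeR adjusted p = 0.0234), lost without either peritoneal library or spleen library 1 or 2 (up to 0.184). Of the 23 values 17 were negative, with a median of -0.21, and 10 genes had ranges wholly below spleen, against 13.4% of all genes. An unadjusted p below 0.05 was reached by 8 of the 23, beside 1592 of all 18423 genes. DESeq2 called 5 of the 23 lower and limma 2. The kinases Lck and Zap70 had log2 values of -0.70 and -1.02 and did not pass (adjusted p = 0.0535 and 0.201). Of 18 glycolysis genes 1 was higher, Eno1 for enolase, at 525 and 500.1 CPM against 335, 307 and 314 CPM (log2 0.69, edgeR adjusted p = 0.0151), lost without either peritoneal library or spleen library 2 or 3 (up to 0.122). No gene passed by edgeR among 20 of cholesterol synthesis, where the median log2 value was 0.16, 3 had an unadjusted p below 0.05, and DESeq2 and limma called none. None passed by edgeR among 21 tested of fatty acid uptake and oxidation either, where the median was 0.36 (0.16 without peritoneal library 2), 4 had an unadjusted p below 0.05, DESeq2 called 2 higher and limma none. Sc5d, an enzyme late in cholesterol synthesis, had a log2 value of 1.10, and Dgat1, which makes triglycerides, of 1.37 (edgeR adjusted p = 0.281 and 0.16). Of 28 cell cycle genes none passed by edgeR and 5 had an unadjusted p below 0.05, while DESeq2 called 1 lower and limma none. Of their values 25 were negative and the median was -0.82. Ranges lay wholly below spleen for 13 of them and wholly above for 1, against 13.4% and 15.0% of all genes. Mki67, the proliferation marker Ki-67, stood at 26.7 and 9.72 CPM against 70.8, 58.5 and 96.3 CPM with separate ranges (log2 -2.04, SE 0.61, edgeR adjusted p = 0.227). With an SE of this size a difference as large as that of Mki67 was not detectable here.

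Further genes among the largest higher changes fell outside the lists. Myadm, a protein of membrane rafts, stood at 231 and 335 CPM in the peritoneal and 37.3, 18.4 and 22.1 CPM in the spleen libraries (log2 3.45, edgeR adjusted p = 0.0195). Dennd4a, which activates Rab GTPases, stood at 252 and 254 CPM against 12.7, 28.5 and 37.3 CPM (log2 3.27, edgeR adjusted p = 0.00423), and its call held with each library left out. Tent5a, a poly(A) polymerase that stabilises messenger RNA, was 6.71-fold higher (edgeR adjusted p = 0.00423), and Sgms1, a sphingomyelin synthase, 3.24-fold (adjusted p = 0.000677). Ndrg1, a gene of stress and anergy, and Pde3b, which breaks down cyclic AMP, had log2 values of 3.32 and 3.20 at lower levels. Mpzl2, an adhesion protein, stood at 35.7 and 7.11 CPM in peritoneal libraries that differ from each other, against 0.0534, 0 and 0.0486 CPM in spleen. Its estimate rests on 1 count in each of 2 spleen libraries and is not read as a size. Sgms1 kept its call with each library left out. Tent5a lost it without peritoneal library 2 (0.0524), Ndrg1 and Myadm without most single libraries (up to 0.281 and 0.159), and Pde3b and Mpzl2 without any one (up to 0.33 and 0.16).

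Markers of other cell types differed between the tissues as follows. None of the 18 B cell genes passed by edgeR, and 9 had an unadjusted p below 0.05, beside 1592 of all 18423 genes. DESeq2 called 4 of the 18 and limma 1 as higher. Of their values 16 were positive, the median was 1.60, and 14 had ranges wholly above spleen, against 15.0% of all genes. Cd79b, a chain of the B cell receptor, stood at 396 and 762 CPM in the peritoneal and 158, 173 and 225 CPM in the spleen libraries (log2 1.64, edgeR adjusted p = 0.121). Ighm, the most abundant immunoglobulin RNA, ran at 2333 and 3187 CPM against 2945, 2914 and 3088 CPM with no such gap. The 9 markers of B-1 and plasma cells summed to 316 and 529 CPM against 186, 152 and 213 CPM, with Tnfrsf17 at 0 in all 5 libraries. The 20 macrophage markers summed to 311.5 and 452 CPM in the peritoneal and to 542, 357 and 273 CPM in the spleen libraries, and Gata6, which defines resident peritoneal macrophages, was at 0 in all 5, as were F10 and Cfb. Dendritic cell markers summed to 36.2 and 53.5 CPM against 35.9, 64.4 and 55.2 CPM, with Siglech at 0 in all 5. Monocyte and neutrophil markers summed to 32.4 and 83.6 CPM in the peritoneal and to 26.0, 22.8 and 18.7 CPM in the spleen libraries. Cxcr2 and Elane were at 0 in all 5. Of these sums, Itgam alone held 26.5 and 33.3 CPM in the peritoneal and 5.13, 5.73 and 2.96 CPM in the spleen libraries. S100a8 and S100a9 were at 0 in peritoneal library 1. The 9 NK and innate lymphoid markers summed to 8.39 and 17.5 CPM against 29.8, 40.0 and 27.7 CPM, all 8 tested values were negative, and Klra1 was at 0 in all 5. Cst7, Gzmb and Cd96, which NK cells also express, were higher in each spleen library too, and the part of NK cells in them was not tested. CD8 T cell markers summed to 57.1 and 96.1 CPM against 92.5, 165 and 157 CPM. Mast cell markers (22.04 and 1.89 CPM against 0.801, 2.44 and 3.45 CPM) and mesothelial markers (3.09 and 13.3 CPM against 11.7, 9.72 and 3.25 CPM) overlapped between tissues. Erythroid and platelet markers had the widest gap between sums. Slc4a1, Car1 and Klf1 were at 0 in both peritoneal libraries, but also in spleen library 2, as was Klf1 in spleen library 3. H2-Ob, a class II gene of B cells, was among the 89 higher genes at 231 and 239 CPM against 109, 77.2 and 107 CPM. Peritoneal library 2 held more B cell RNA than library 1. Ifngr1, Il1rl1, Ccr2 and S1pr1 were higher in library 1, and Crip1, Vim and Ptafr in library 2. These genes were picked here after their values were seen, and the part of B cell RNA in them was not tested.

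**Figure D4:**
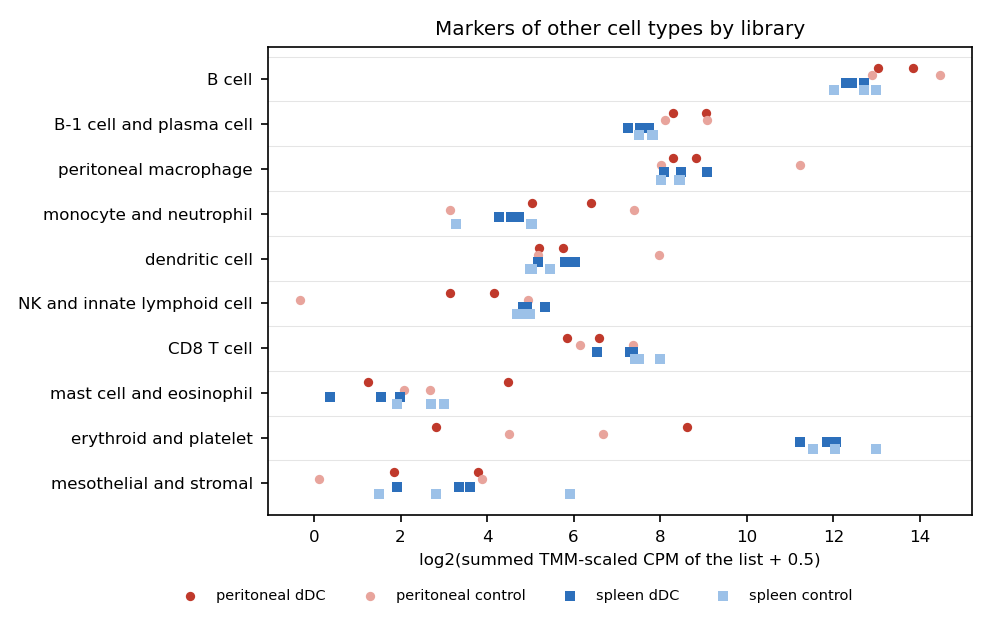
Summed TMM-scaled CPM on a log2 axis, with 0.5 added, of 10 lists of markers of other cell types in each peritoneal (circles) and spleen (squares) library, darker for dDC and paler for control. The B cell sums of the peritoneal dDC libraries (8321 and 14580 CPM) lie above those of the spleen dDC libraries (5045 to 6644 CPM), and the erythroid sums lie below.

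The same tissues in littermate controls were compared in the same way. That comparison shares no library with the one above but shares its fit. Its peritoneal library 2 held 22610 CPM of B cell and 2406 CPM of macrophage markers, and its peritoneal library 1 held 7578 and 258 CPM. In controls 146 genes passed (0.792%), 54 higher (0.293%) and 92 lower (0.499%) in the peritoneal cavity. Of the 89 genes higher in dDC mice, 87 had the same sign in controls and 37 passed there. Of the 78 lower genes, 78 had the same sign and 40 passed. Over all tested genes with a positive or a negative value in dDC mice, the shares with the same sign in controls were 57.7% and 61.2%. The median log2 values of the called genes were 1.32 and -1.68 in dDC mice, where they were chosen, and 0.93 and -1.25 in controls. Ptafr stood at 159 and 84.6 CPM in peritoneal against 7.08, 1.92 and 4.38 CPM in spleen controls (log2 4.77, edgeR adjusted p = 0.00936), and Ifngr1 at 3088 and 2053 CPM against 428, 326 and 414 CPM (log2 2.72, edgeR adjusted p = 0.000192). In peritoneal control 2, the library with the largest B cell sum, both genes were lowest among the 4 peritoneal libraries. Ccr2, at 573 against 263 CPM, and Vim, at 626 against 499 CPM, were higher there than in peritoneal control 1. This comparison was picked after the values were seen, and the part of other cells in these genes was not tested. Crip1 (log2 2.21), Tagln2 (1.75), Il1rl1 (2.83), Izumo1r (-1.79) and Isg15 (-2.62) also passed in controls with the same sign. The interferon list had a median of -1.70 with 6 lower members there.

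Whether the tissue difference itself differed between dDC mice and controls was tested directly. No gene passed by edgeR, with a smallest adjusted p of 0.148. An unadjusted p below 0.05 was reached by 900 of the 18423 genes, which is no more than chance alone would give. Limma called none and DESeq2 called 55, of which 38 had a positive and 17 a negative log2 difference (dDC minus control). Without peritoneal control 1, which leaves peritoneal control 2 alone, edgeR called 71 genes, 70 of them with a positive log2 difference. Without any other single library it called none. The smallest p was that of Krt83, a hair keratin, at 2.99 and 7.39 CPM in the peritoneal dDC libraries and no count in either peritoneal control library (edgeR adjusted p = 0.148). Its spleen values were 10.4, 8.98 and 10.5 CPM in dDC mice and 7.13, 4.51 and 4.25 CPM in controls. Ccr8 stood at 0.489 and 0 CPM in peritoneal and 74.6, 65.6 and 62.0 CPM in spleen controls, so that its gap between tissues was narrower in dDC mice (log2 difference 4.61, SE 0.83, unadjusted p = 0.000135, edgeR adjusted p = 0.622). Cxcr6 stood at 75.8 and 24.5 CPM against 76.5, 56.3 and 52.0 CPM in controls, with overlapping ranges (log2 difference 2.45, SE 0.53, unadjusted p = 0.000583, edgeR adjusted p = 0.92). Klrg1 stood at 83.2 and 70.3 CPM against 51.4, 74.5 and 77.8 CPM there (log2 difference 1.76, SE 0.42, unadjusted p = 0.00121, edgeR adjusted p = 0.92). Tnfrsf4 and Gpr83 had log2 differences of 0.95 and -2.51 (unadjusted p = 0.000867 and 0.00147), and Cxcr6 and Cd200r1 were the 2 higher genes with the opposite sign in controls. These genes were picked after their values were seen, and none of their differences passed. By the smallest p, Tanc2, a scaffold protein, and Map2, a microtubule protein, came next among positive differences. Tanc2 stood at 11.5 and 11.4 CPM in peritoneal and 1.76, 4.19 and 2.28 CPM in spleen dDC libraries, against 0.783 and 0.824 CPM and 11.5, 9.81 and 6.65 CPM in controls. Map2 had no count in the peritoneal control libraries. Znrf1, a ubiquitin ligase, Hk2, a hexokinase, and Cpt2, of fatty acid oxidation, had the negative log2 differences with the smallest p (-1.69, -3.62 and -1.79).

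**Figure D5:**
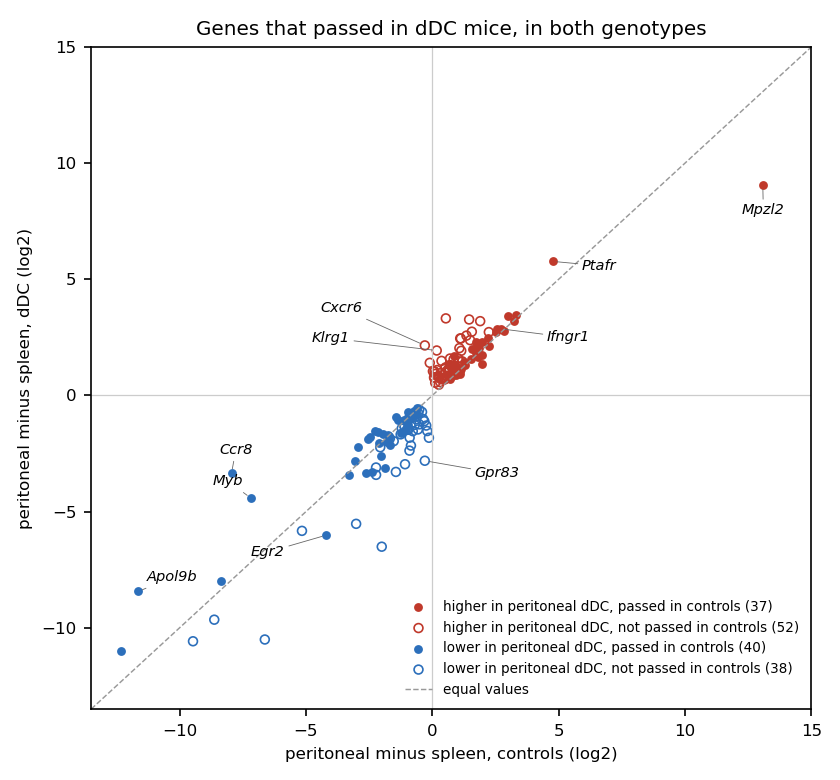
Log2 difference of peritoneal minus spleen Tregs in dDC mice against the same difference in controls for the 167 genes that passed in dDC mice, red for higher and blue for lower, filled where the gene also passed in controls; the dashed line marks equal values. Of the points, 165 lie on the same side of 0 in both genotypes, and the genes were chosen on the vertical axis.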

How the data were processed

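Foxp3 reporter Tregs were sorted from spleen, thymus and peritoneal cavity, RNA was purified and made into cDNA by template switching from an oligo-dT primer, and fragmented libraries were amplified by PCR, per the labels' protocols. No strand is kept and no molecular identifiers are named, so reads of a gene and of one that overlaps it on the other strand are mixed, and PCR copies count as reads. The values are raw counts per gene deposited by the authors, one column per library beside gene coordinates (mm10) and length. Per the submitters' processing notes, bcl2fastq 2.19.1, GSNAP and featureCounts 1.6.0 were used. Groups came from tissue and genotype in the labels. Spike-in sequences were left out.

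The counts of all 15 libraries were fitted together with edgeR 4.0.16 (quasi-likelihood, TMM factors, R 4.3.3) for 18423 genes kept by filterByExpr, with 9 residual degrees of freedom. Tissue differences within dDC mice, within controls and the difference between them were contrasts of this fit, adjusted by Benjamini-Hochberg, and genes with an adjusted p below 0.05 passed. Thymus libraries entered none of these contrasts, but they took part in the gene filter, the TMM factors and the estimate of the spread. The median coefficient of variation of that spread was 0.551 (0.181 above 100 CPM). CPM were scaled with TMM factors, and fold changes against a group with no count were set against a floor of 3 counts per library. The named genes were, by rule, the 12 largest changes in each direction that passed with at least 20 CPM in the higher group, the 6 smallest p-values per direction above 100 CPM, up to 4 members of each program list that passed (2 by smallest p where none did), up to 3 of each marker list, a fixed set with Foxp3 and Relb, and the 3 smallest p-values per direction for the difference between genotypes. Model genes and antigen receptor segments were left out, and a few genes of the lists are not reported here by name, though list counts include them. Other list members and genes are named as values, picked after these were seen. The 18 program lists and 10 marker lists, like the comparison itself, were chosen with earlier results of these data known. Alternatives were other scaling factors and filters, DESeq2 1.42.0, limma 3.58.1, fewer libraries and a test against 2-fold. The steps were tested on simulated data. No pair of libraries agreed within sampling noise. Exons of Klf3, Ndrg1, Gata3, Ikzf2, Ebi3, Plp2 and Znrf1 also overlap another gene, so their reads are uncertain to that extent. The same holds for Gbp6, Gbp10, Ephx1, Sgms1, Tox, Zfp36l1, Map2 and Nrp1.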

Additional observations from a re-analysis of the deposited data

How the results depend on the processing

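The counts of genes moved with the library set and the tool, and the cause was not tested. DESeq2 called 268 higher and 316 lower genes (45.9% higher, against 53.3%), among them all 167, and limma called 153 higher and 69 lower (68.9% higher). A fit of the 5 libraries alone called 36 and 21 genes, a fit without the thymus 77 and 48, and a test against 2-fold 6 and 10, among them 16 of the 167. Leaving out single libraries gave 23 to 46 higher and 18 to 40 lower genes. Scaling factors and filters kept both counts within 1.5 times. For the difference between genotypes DESeq2 called 38 genes with a positive and 17 with a negative value, and leaving out single libraries gave 0 to 70 and 0 to 1, with calls only without peritoneal control 1.

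Among the values of named genes for the tissue difference under the alternatives, 1233 kept their direction and their side of the threshold, 18 came to pass, 239 no longer passed and none reversed. The test against 2-fold lost 47 calls of named genes and the 5 libraries alone lost 30. The fit without the thymus lost 12 and limma 8 (among them F2r, Gpr83, Ifit3, Ndrg1, Pde3b, Usp18 and Zfp36l1). Penk did not pass without a filter, nor Tox with upper-quartile factors. Of the named genes that passed without each library in turn, Dennd4a, Egr2 and Myb did not pass with the 5 libraries alone (edgeR adjusted p = 0.0586, 0.0769 and 0.068). Ahnak, Ecm1, Klf3, P2ry10, Rgs10, Sgms1, Sh2d1a and Tnfrsf18 were among those that did not pass against 2-fold (edgeR adjusted p from 0.0962 to 0.824). The medians of the Treg identity, tissue Treg, cytokine receptor, integrin, glycolysis and cholesterol lists, all near 0, lay between -0.23 and 0.29 without single libraries. Where 1 peritoneal library was left, its spread was taken from the other groups. With a median coefficient of variation of 1.29 below 5 CPM, against 0.181 above 100 CPM, weak genes carry the largest errors. No paired analysis was possible because the libraries compared share no number or pairing in the labels, and replicate numbers follow accession order.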

Other observations

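Several genes outside the lists, picked here after their values were seen, passed and kept their call by edgeR with each of the 5 libraries left out. Atp2b1, a pump that exports calcium across the plasma membrane, stood at 601 and 580.2 CPM in the peritoneal and 286, 235 and 236 CPM in the spleen dDC libraries (log2 1.23, adjusted p = 0.000677). Adk, the kinase that clears adenosine inside cells, stood at 479.8 and 467 CPM against 178, 124 and 175 CPM (log2 1.57, adjusted p = 0.00228). Pik3r5, a regulatory subunit of phosphoinositide 3-kinase gamma downstream of chemokine receptors, stood at 226 and 218 CPM against 67.7, 56.8 and 39.0 CPM (log2 2.02, adjusted p = 0.00487). In all 3 the tissues did not overlap. Lower in the peritoneal cavity were Igf2r, the receptor that takes up mannose-6-phosphate proteins, at 79.6 and 48.0 CPM against 186, 253 and 234 CPM (log2 -1.82, adjusted p = 0.00354), and the surface glycoprotein gene Cd52 (log2 -1.09, adjusted p = 0.00228), whose exons overlap Crybg2.

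Further genes picked after their values were seen passed by edgeR, with calls that leaned on single libraries. Tnfaip3, which encodes the NF-kappaB inhibitor A20, stood at 545 and 511 CPM against 124, 76.7 and 88.9 CPM (log2 2.45, adjusted p = 0.00859, up to 0.0532 without single libraries). Tsc22d3, for the glucocorticoid-induced protein GILZ, stood at 1652 and 1337 CPM against 494, 242 and 373 CPM (log2 2.02, adjusted p = 0.0126, up to 0.086). Cdkn1b, for the cell cycle inhibitor p27, had a log2 value of 0.93 (adjusted p = 0.0173, up to 0.121). The constant segment gene of the T cell receptor alpha chain, Trac, was lower at 1762 and 1626 CPM against 2660.3, 2790.0 and 2652 CPM (log2 -0.67, adjusted p = 0.0047, up to 0.103), and so was Cd96, a receptor of T and NK cells (log2 -0.91, adjusted p = 0.0146, up to 0.219). Cd86, a costimulatory ligand of antigen-presenting cells that T cells can also carry, stood at 25.4 and 16.4 CPM against 87.1, 93.0 and 145 CPM (log2 -2.37, adjusted p = 0.0388, up to 0.409).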
